A study of Mus musculus with 18 samples.

Results

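Cxcl9, Cxcl10 and Cxcl11 encode the chemokines CXCL9, CXCL10 and CXCL11, which bind the receptor CXCR3. These 3 genes were found by symbol among the 21380 gene identifiers of an RNA sequencing data set of mouse macrophages, and each symbol matched 1 identifier. Cells flushed from mouse femurs were cultured over 7 days with 15% serum and with macrophage colony-stimulating factor at 30 ng/mL, which turns marrow precursors into bone marrow-derived macrophages. The macrophages came from wild-type (WT) mice or from mice labelled knockout (KO) for Ldha, the gene of the A chain of lactate dehydrogenase, which interconverts pyruvate and lactate. They were left untreated or were given recombinant mouse interferon gamma (IFN-gamma, the classical or M1 signal) or interleukin 4 (IL-4, the alternative or M2 signal) for 24 h. The 6 groups are therefore WT untreated, KO untreated, WT with IFN-gamma, KO with IFN-gamma, WT with IL-4 and KO with IL-4. Each group held 3 libraries from separate animals by the animal codes of the labels, and the same 6 animals recur in the 3 treatments. Strain, age, sex and the promoter or Cre line behind the knockout are not named in the labels used here, although the title of the series calls the dehydrogenase expression under study macrophage-specific.

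CXCL9, CXCL10 and CXCL11 are small secreted proteins that draw activated T cells and natural killer cells, which carry CXCR3, into inflamed tissue, and macrophages are a classical source of them. IFN-gamma binds the receptor IFNGR1/IFNGR2, the kinases JAK1 and JAK2 pass the signal on, and the induced transcription factor IRF1 takes part in transcription of the 3 genes. Type I interferons and the factor NF-kappa B act on the same promoters, and the messages are short-lived. CXCL10 in particular is also made in response to type I interferon alone, whereas Cxcl9 is known for its close dependence on IFN-gamma.

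The genes lie in the same direction within 44.1 kb of chromosome 5 (GRCm38, minus strand). Cxcl9 (ENSMUSG00000029417.9) spans chr5:92321347-92328079 and has 4 exons in its longest transcript. Cxcl10 (ENSMUSG00000034855.13) spans chr5:92346638-92348889 with 3 exons and lies 18.6 kb from Cxcl9. Cxcl11 (ENSMUSG00000060183.6) spans chr5:92359544-92365485 with 4 exons, 10.7 kb further on. Both the deposited table and GENCODE M21 class Cxcl11 as a polymorphic pseudogene, a class for genes that are intact in some strains and disrupted in others. The strain is not named, so the values for Cxcl11 are transcript levels and say nothing of a protein. Cxcl10 shares 133 exon bases with Art3, an ADP-ribosyltransferase family gene on the opposite strand (chr5:92331827-92414628). The library kit kept strand, but no source used here gives the strand setting of the counting, so reads in those shared bases are uncertain.

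The sequences directly before the start of Cxcl9 and Cxcl10 are shown because both genes rose with IFN-gamma and because interferon signals and NF-kappa B act there. They are the 250 bases before the RefSeq gene start in GRCm38.p6, read 5′ to 3′ on the minus strand, and capitals mark every match to 3 motifs searched on both strands. The RefSeq table held a window for 2 of the 3 genes, and Cxcl11 was not among them. Cxcl9 is taken from chr5:92328080-92328329 and Cxcl10 from chr5:92348890-92349139.
Cxcl9: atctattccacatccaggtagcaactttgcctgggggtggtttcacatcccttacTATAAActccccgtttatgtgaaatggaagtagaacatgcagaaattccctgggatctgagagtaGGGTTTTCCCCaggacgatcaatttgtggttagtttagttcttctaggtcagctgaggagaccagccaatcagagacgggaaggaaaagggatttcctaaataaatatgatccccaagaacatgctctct
Cxcl10: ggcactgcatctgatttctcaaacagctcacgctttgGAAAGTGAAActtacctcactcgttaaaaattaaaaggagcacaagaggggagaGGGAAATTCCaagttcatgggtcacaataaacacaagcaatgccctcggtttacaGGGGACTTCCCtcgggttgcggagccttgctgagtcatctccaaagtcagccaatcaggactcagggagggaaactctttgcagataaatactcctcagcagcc
The motifs were the interferon-stimulated response element (ISRE, GAAA and GAAA with any 2 bases between), the kappa B site (GGG and CC with any 5 bases between) and the TATA box (TATAAA). In Cxcl10 the ISRE letters began 213 bases before the start as GAAAGTGAAA, and kappa B letters began 159, 104 and 103 bases before it, the last 2 overlapping. In Cxcl9 kappa B letters began 130 bases before the start, overlapping a match on the other strand from 129 bases, and TATAAA stood 195 bases before it. The Cxcl9 window held no ISRE letters. Over all 32817 promoter windows of this length, 2.97% held the ISRE, 45.8% the kappa B and 12.4% the TATA letters, so a kappa B match by these letters is common. A match of letters is a description and does not show binding.

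Between 9.77 M and 49.5 M reads per library (median 30.9 M) were assigned to genes, and values below are normalized counts, that is, reads divided by a size factor of the library. Ldha stood at 36196.7 to 38896 in the WT and 9189.55 to 10124.5 in the KO libraries with IFN-gamma, so KO held 25.6% of the WT level (17.5% with IL-4). Lyz2, the macrophage lysozyme gene, stood at 200017 to 232226 in WT and 173 to 204 in KO with IFN-gamma, and was as far apart in the other treatments. KO and WT thus differed in Lyz2 as well as in Ldha, and the 2 differences cannot be told apart in any genotype comparison. All 8 listed macrophage markers were present in every group, with summed levels of 194720 to 288842 per library. Replicate 1 of WT with IFN-gamma stood apart from the other 2 WT libraries of that treatment, with a chi-square per gene of 60.8 and 67.1 against them and 4.72 between them. All 3 chemokine genes had their lowest WT value with IFN-gamma in that library. Such distances were not limited to it: pairs of WT libraries with IL-4 had values of 46.5 to 66.2. The 4.72 was the smallest value of any pair.

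All 3 genes passed the filter on low values (normalized counts of 10 or more in 3 or more libraries, which 14288 genes met), Cxcl11 only through its IFN-gamma libraries. Unless stated otherwise, a change is a log2 fold change ± SE of log2(normalized count + 1) from limma fitted to all 18 libraries, and a gene passed where its p adjusted over the 14288 genes (Benjamini-Hochberg) was under 0.05. An exact permutation test of 3 against 3 libraries cannot give a p under 0.1. In bulk RNA, fewer cells making a transcript and less transcript per cell cannot be told apart.

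IFN-gamma took all 3 genes from a low to a high level in both genotypes. Cxcl9, known as the monokine induced by gamma interferon, stood at 26.3, 9.92 and 34.9 in the 3 untreated WT libraries and at 111523, 118596 and 121121 in the WT libraries with IFN-gamma. In KO it stood at 23.5, 20.8 and 35.9 untreated and at 70774.7, 75679.9 and 67900.6 with IFN-gamma. Every treated library was thus far above every untreated library. The change of Cxcl9 was 12.37 ± 0.75 in WT (adjusted p = 1.34e-10) and 11.37 ± 0.75 in KO (adjusted p = 5.27e-10).

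Cxcl10, also called interferon-inducible protein of 10 kDa, started from a higher base. Untreated WT libraries held 124, 78.5 and 98.1 and untreated KO libraries 80.6, 111 and 122. With IFN-gamma the WT libraries held 53919.2, 71094.6 and 67131.8 and the KO libraries 45915.7, 51469.8 and 45015.7. The groups with and without IFN-gamma did not overlap. Its change was 9.32 ± 0.29 in WT (adjusted p = 2.15e-14) and 8.83 ± 0.29 in KO (adjusted p = 5.3e-14).

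Cxcl11, the interferon-inducible T cell chemoattractant, was almost silent without IFN-gamma. The 3 untreated WT libraries together held 3 reads of it and the 3 untreated KO libraries 2 reads. With IFN-gamma it stood at 5974.11, 7309.56 and 7164.82 in WT and at 2722.42, 3065.23 and 2895.07 in KO. By reads the ratio of treated to untreated was 8246 in WT (95% counting interval 2821 to 39987) and 4987 in KO (1380 to 41189), and these intervals cover counting error only. The limma changes of 11.998 ± 0.464 (adjusted p = 4.03e-13) and 11.03 ± 0.46 (adjusted p = 1.38e-12) depend on the 1 added to each count.

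All 3 genes passed as higher in both genotypes, beside 31.4% of all genes in WT and 28.3% in KO. Treated libraries above all untreated ones, as seen for the 3, were found for 35.7% and 34.6% of genes. By size of change Cxcl9, Cxcl11 and Cxcl10 ranked 2, 3 and 23 among 14288 genes in WT, and 6, 7 and 22 in KO. Gbp4, an interferon-induced GTPase gene, ranked 5 in WT and 8 in KO, and Nos2, the inducible nitric oxide synthase gene, ranked 6 and 3. Per kb of transcript, the scale on which genes can be compared, Cxcl10 was the most abundant of the 3 with IFN-gamma, with mean levels of 47338.2 per kb in WT and 35082.8 in KO. Cxcl9 followed with 40526.2 and 24732.4, and Cxcl11 with 1797 and 763. The order of Cxcl10 and Cxcl9 rests on the transcript lengths used, 1353 and 2889 bases. Without the length correction Cxcl9 stood above Cxcl10, at a mean ratio of 1.85 in WT and 1.51 in KO. The ranges of Cxcl9 (38602.7 to 41925 per kb) and Cxcl10 (39851.6 to 52545.9) overlapped between WT libraries, whereas in KO Cxcl9 (23503.2 to 26195.9) lay below Cxcl10 (33271.1 to 38041.3). By that level Cxcl10 ranked 29 and Cxcl9 41 among 13944 genes with a known length in WT, while Cxcl11 ranked 1292. In KO the ranks were 38, 63 and 2785.

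**Figure D1:**
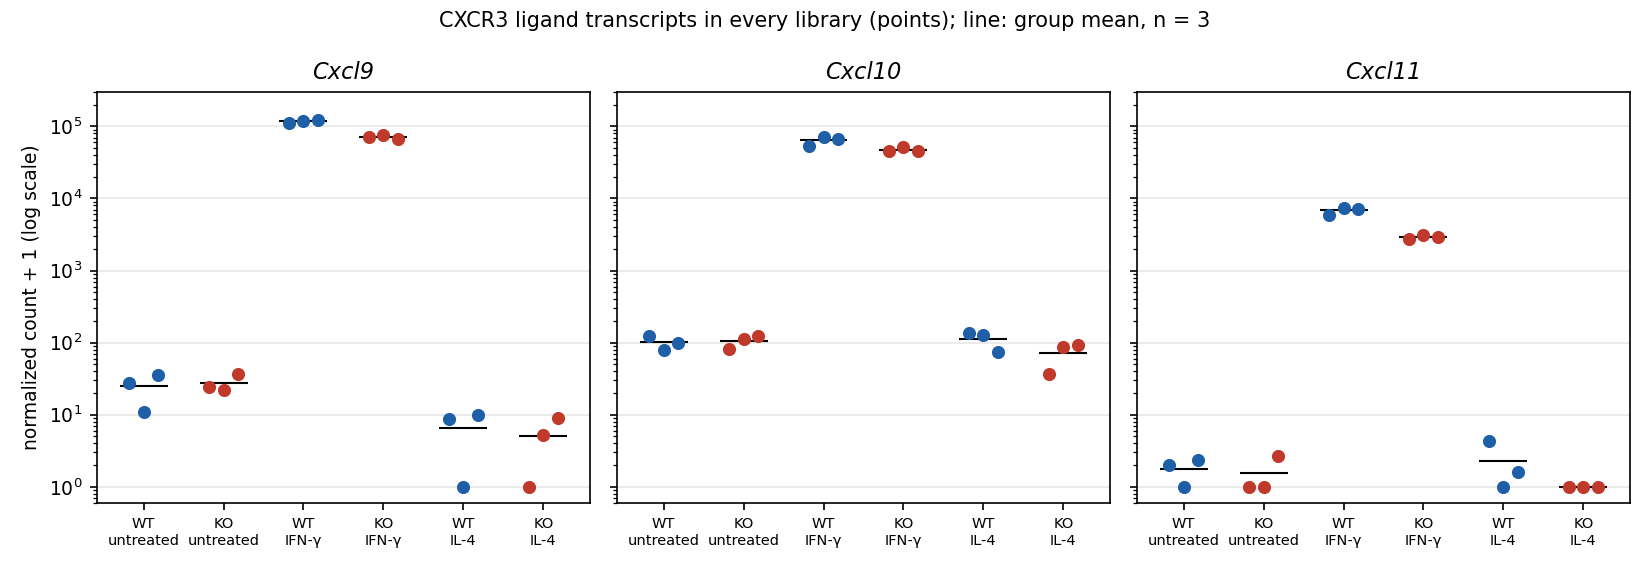
Normalized count + 1 (log axis) of Cxcl9, Cxcl10 and Cxcl11 in each of the 18 libraries by group, blue for WT and red for KO, with a line at the mean of 3 libraries. All 6 IFN-gamma libraries lie orders of magnitude above the others, Cxcl9 is lower with IL-4 than untreated, and points at 1 are libraries with no read.

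Untreated macrophages of both genotypes held the genes in the order Cxcl10, Cxcl9, Cxcl11. The mean Cxcl10 level per kb was 74.0 in WT and 77.1 in KO, that of Cxcl9 8.21 and 9.26, and that of Cxcl11 0.201 and 0.143. KO and WT libraries overlapped for each gene. The KO against WT change was 0.29 ± 0.75 for Cxcl9 (adjusted p = 0.95) and 0.06 ± 0.29 for Cxcl10 (adjusted p = 0.979), so neither passed, beside 1.98% of all genes. Cxcl11, with 3 reads in WT and 2 in KO, gave no fold.

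IL-4 was followed by a lower level of Cxcl9. The WT libraries with IL-4 held 7.65, 0 and 8.75 and the KO libraries 0, 4.18 and 7.89, all below every untreated library of their genotype. The changes were -2.33 ± 0.75 in WT (adjusted p = 0.0248) and -2.91 ± 0.75 in KO (adjusted p = 0.00612), beside 14.0% and 14.5% of genes that passed as lower. A gap with IL-4 below untreated was seen for 21.7% of all genes in WT and 23.3% in KO. These levels rest on 21 reads in WT against 91 untreated and 17 reads in KO against 94. By reads the ratios were 0.299 (95% counting interval 0.177 to 0.485) and 0.175 (0.0979 to 0.296). The WT library with 0 was replicate 2, the shallowest of the series at 9.77 M reads, where 1 read is worth 3.28 normalized counts. Without it the WT change was -1.26 (adjusted p = 0.149), and it also missed without untreated WT replicate 1 (adjusted p = 0.0734) or 3 (adjusted p = 0.106).

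Cxcl10 did not follow Cxcl9 downward in WT. Its WT libraries with IL-4 held 134, 128 and 73.8, which overlapped the untreated range, and the change was 0.14 ± 0.29 (adjusted p = 0.757). In KO the libraries held 36.3, 85.6 and 91.0, a change of -0.64 ± 0.29 (adjusted p = 0.106). With the animal as a block, since the same animals gave both libraries, the KO change had an adjusted p = 0.0493. It also passed without KO IL-4 replicate 3 (-0.87, adjusted p = 0.0384), whereas without replicate 1, the lowest library, it was -0.22 (adjusted p = 0.569). KO against WT with IL-4 was -0.71 ± 0.29 for Cxcl10 (adjusted p = 0.15) and -0.29 ± 0.75 for Cxcl9 (adjusted p = 0.865), beside 6.59% of genes that passed either way. Cxcl11 had 4 reads in WT with IL-4, a ratio of 1.73 to the untreated 3 reads (95% counting interval 0.292 to 11.8). In KO with IL-4 it had 0 reads, where 3 reads would be a mean of 0.834. The genotype difference in the IL-4 response was -0.59 ± 1.06 for Cxcl9 (adjusted p = 0.999) and -0.77 ± 0.40 for Cxcl10 (adjusted p = 0.943) by limma, and neither passed, beside 0.007% of genes.

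With IFN-gamma, every KO library lay below every WT library for all 3 genes. The KO mean was 61.0% of the WT mean for Cxcl9 (71451.8 ± 3934 against 117080 ± 4975, mean ± SD, n = 3). It was 74.1% for Cxcl10 (47467.1 ± 3496 against 64048.6 ± 8993) and 42.5% for Cxcl11 (2894 ± 171 against 6816 ± 733). Such a gap with KO below WT was seen for 21.4% of all genes. The exact two-sided permutation p was 0.1 for each gene, the smallest that 3 against 3 can give.

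**Figure D2:**
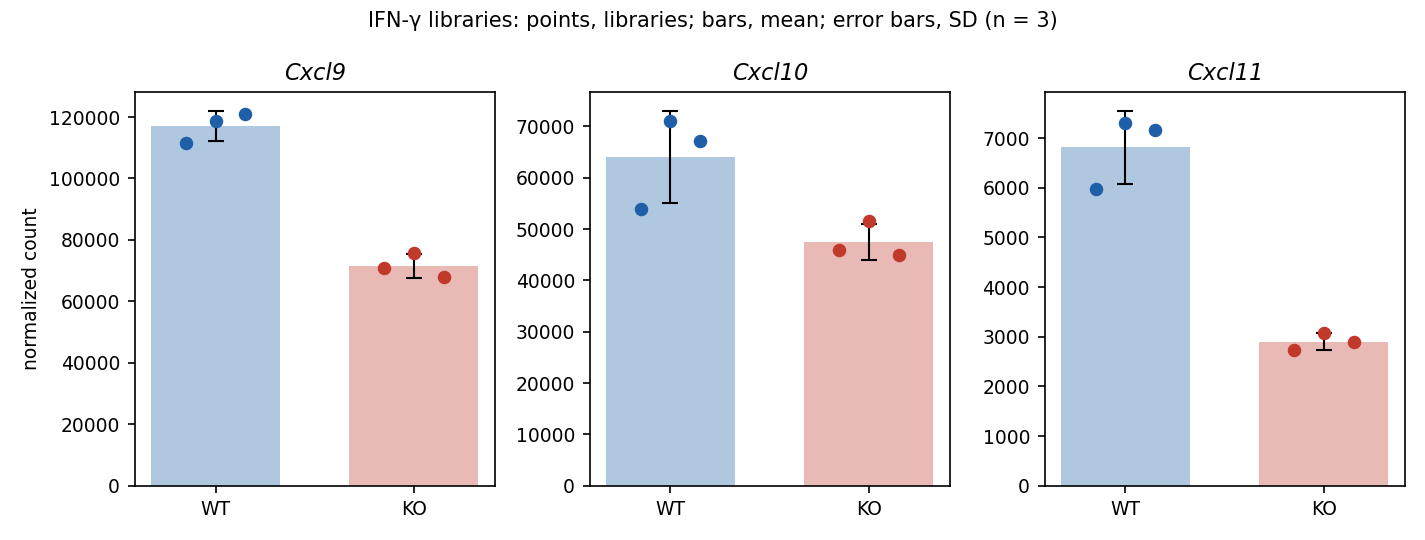
Normalized counts (linear axis from 0) with IFN-gamma in the 3 WT and 3 KO libraries as points, with bars at the mean and error bars of 1 SD. The highest KO library lies below the lowest WT library in each panel, and the gap is widest relative to the mean for Cxcl11.

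In the limma fit to all 18 libraries none of the 3 passed, beside 13.6% of genes that passed as lower. The change was -0.71 ± 0.75 for Cxcl9 (adjusted p = 0.52), -0.42 ± 0.29 for Cxcl10 (adjusted p = 0.294) and -1.23 ± 0.46 for Cxcl11 (adjusted p = 0.0568). The SE of this fit pools the spread of all treatments. On the log2 scale the SD within groups of Cxcl9 was 0.0709 with IFN-gamma, 0.696 untreated and 1.75 with IL-4, where few reads were counted, while the median gene had 0.179, 0.104 and 0.206. Cxcl10 spread by 0.166, 0.317 and 0.615 and Cxcl11 by 0.129, 0.73 and 0.755 in the same order. Fitted to the 6 IFN-gamma libraries alone, limma gave the same changes with adjusted p = 0.00361 for Cxcl9, 0.0498 for Cxcl10 and 0.000514 for Cxcl11, so all 3 passed, beside 10.1% of genes as lower. edgeR, a count model, on the reads of all groups gave adjusted p = 0.00915 for Cxcl9, 0.116 for Cxcl10 and 2.41e-06 for Cxcl11, beside 14.3% of genes as lower. DESeq2 gave adjusted p = 0.122, 0.146 and 5.03e-25 in the same order, beside 15.0%. edgeR on the 6 IFN-gamma libraries alone, chosen after seeing the data, gave adjusted p = 0.00123, 0.0295 and 0.000125, beside 10.8%.

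The response to IFN-gamma itself, treated against untreated, was also smaller in KO by its value for each gene but did not pass. The genotype difference in the response was -1.01 ± 1.06 for Cxcl9 (adjusted p = 0.62), -0.49 ± 0.40 for Cxcl10 (adjusted p = 0.512) and -0.97 ± 0.66 for Cxcl11 (adjusted p = 0.402), beside 9.15% of genes that passed either way. For Cxcl11, where the untreated level is a few reads, adding 5 in place of 1 to each count gave -1.17 (adjusted p = 0.0128). Replicate 1 of WT with IFN-gamma, the library that stood apart, was the lowest of the WT libraries for all 3 genes. Without it the KO against WT changes with IFN-gamma were -0.75, -0.54 and -1.32 for Cxcl9, Cxcl10 and Cxcl11 (adjusted p = 0.593, 0.255 and 0.0948).

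Ratios between the 3 transcripts with IFN-gamma differed between KO and WT libraries by their values. Each put the ligand with the smaller KO share of its WT level on top, so lower values in KO follow from those shares. A ratio of one member to another inside a library does not depend on the size factor of that library. With IFN-gamma the ratio of Cxcl11 to Cxcl10 per kb was 0.0395, 0.0367 and 0.0381 in the WT libraries and 0.0211, 0.0212 and 0.0229 in the KO libraries, so KO was at 57.2% of WT by geometric means, as in the next 2 ratios. The ratio of Cxcl11 to Cxcl9 was 0.0408, 0.0469 and 0.045 in WT and 0.0293, 0.0308 and 0.0325 in KO, or 69.8%. The ratio of Cxcl9 to Cxcl10 was 0.969, 0.781 and 0.845 in WT and 0.722, 0.689 and 0.706 in KO, or 81.9%. KO and WT libraries did not overlap in the 3 ratios, of which any one follows from the other two, and no share over other gene pairs was computed. The log2 differences were -0.81, -0.52 and -0.29 in the order given. The exact two-sided permutation p was 0.1 for each, the smallest possible, and 0.1 after adjustment over the 3 ratios. In untreated libraries the Cxcl9 to Cxcl10 ratio had means of 0.108 in WT and 0.121 in KO, far below those with IFN-gamma.

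**Figure D3:**
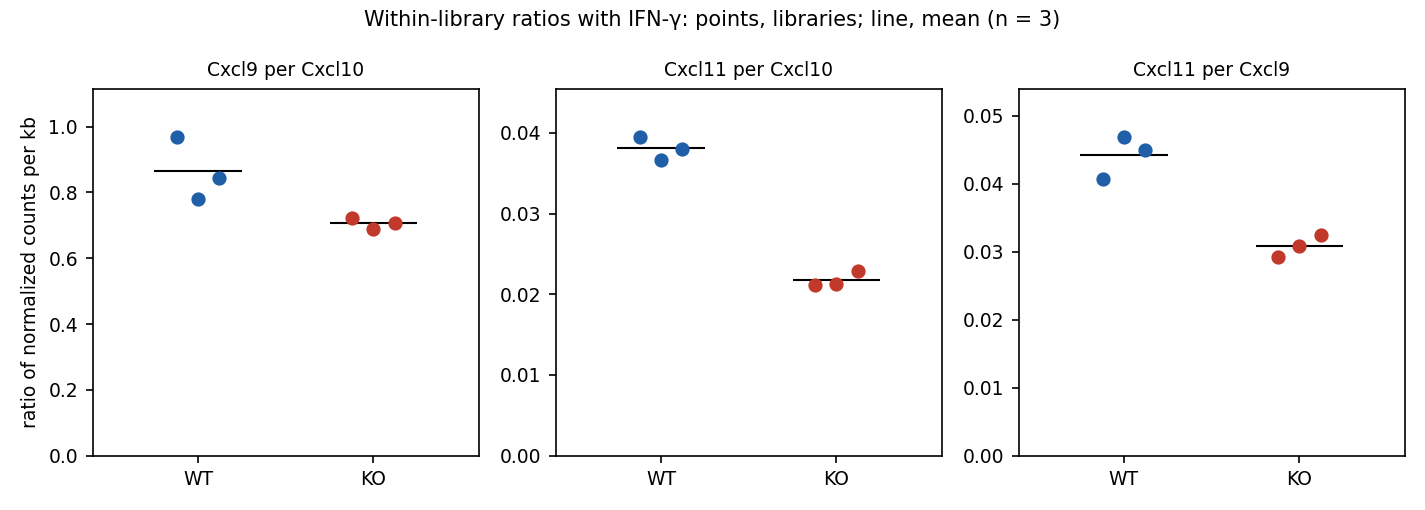
Ratios per kb between pairs of members inside each IFN-gamma library, 3 WT and 3 KO libraries as points. The KO points lie below the WT points in each ratio, and Cxcl11 to Cxcl10 shows the widest relative gap (57.2% of WT).

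Markers of other cells were read in the same IFN-gamma libraries. Summed T and natural killer cell markers (5 of 12 listed were in the table) stood at 137 to 152 in WT and 132 to 142 in KO, with Klrb1c at 0 in WT. Dendritic cell markers (5 of 7) stood at 1520 to 2555 in WT and 1064 to 1351 in KO. Among them Xcr1 had means of 788 and 169 and Clec9a 1266 and 714. Without Xcr1 and Clec9a, the summed mean of the dendritic cell markers was higher in KO than in WT. Neutrophil markers (5 of 9) stood at 2.25 to 4.72 in WT and 31.2 to 67.0 in KO, with Cxcr2 at 0 in both and S100a8 at means of 0.769 and 47.3. Endothelial markers (3 of 4) stood at 1684 to 1754 in WT and 3551 to 4503 in KO, most of it Kdr with means of 1329 and 3803. Without Kdr, the summed mean of the endothelial markers was lower in KO than in WT. Stromal markers (7 of 8) stood at 154 to 265 and 244 to 781, B cell markers (3 of 5) at 7.89 to 13.0 and 20.2 to 29.6, and macrophage markers (8 of 8) at 260816 to 288842 and 216260 to 231237. The part of these differences in the KO levels of Cxcl9, Cxcl10 and Cxcl11 was not tested.

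The receptor was highest in untreated macrophages. Cxcr3, the receptor of all 3 chemokines, had mean levels of 331 in WT and 359 in KO untreated. With IFN-gamma it stood at 94.3, 110 and 127 in WT and at 50.4, 27.7 and 72.2 in KO, so the genotypes did not overlap and all 6 libraries were below their untreated ones. The change with IFN-gamma passed in KO (-2.92 ± 0.78, adjusted p = 0.00416) and not in WT (-1.58 ± 0.78, adjusted p = 0.0901), although WT passed when its groups were fitted alone (adjusted p = 8.34e-05). KO against WT was -1.22 ± 0.78 (adjusted p = 0.27), and passed with the 2 groups alone (adjusted p = 0.0417). The genotype difference in the response was -1.34 ± 1.11 (adjusted p = 0.509), and 0.0294 with the compared groups alone. With IL-4 Cxcr3 fell to means of 15.4 in WT (-5.31, adjusted p = 5.07e-05) and 9.24 in KO (-5.16, adjusted p = 6.12e-05).

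Dpp4, a protease that trims the amino end of these chemokines, rose with IFN-gamma from 2.62 to 190 in WT (5.75 ± 0.46, adjusted p = 6.48e-09) and from 2.29 to 106 in KO (5.13 ± 0.46, adjusted p = 3.8e-08). Like Cxcl11, it passed the filter on low values only through the IFN-gamma libraries. Its KO level with IFN-gamma was 55.7% of WT without overlap, a change of -0.84 ± 0.46 (adjusted p = 0.195), which passed in edgeR (adjusted p = 0.0214). Pf4, platelet factor 4, rose with IL-4 by 1.12 in WT (adjusted p = 0.00362) and 1.00 in KO (adjusted p = 0.00786), the latter lost without KO IL-4 replicate 1 (0.64, adjusted p = 0.0549), beside 16.3% and 15.8% of all genes as higher. Of the 5 listed genes of the axis, 4 were in the table and 3 were tested, Ackr3 being too low. None passed between genotypes with IFN-gamma, beside 13.6% of all genes as lower and 14.3% as higher. A gap with KO below WT, as seen for Cxcr3 and Dpp4 with IFN-gamma, was found for 21.4% of all genes.

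The IFN-gamma signalling list, 15 genes upstream of the ligands, gave 13 higher and 1 lower in WT and 12 higher and 1 lower in KO after IFN-gamma. Of all genes 31.4% were higher and 31.1% lower in WT, and 28.3% and 27.5% in KO. Irf1, which binds the promoters of the ligands, rose by 5.20 in WT and 5.14 in KO. Socs1, the feedback inhibitor of JAK kinases, rose by 8.73 and 7.94. Between genotypes with IFN-gamma 6 of the 15 passed as lower and 0 as higher (13.6% and 14.3% of all genes), and the list's median change was -0.12 beside 0.01 for all tested genes. The list mixes genes that carry the signal with genes that restrain it, such as Socs1 and Irf2. These counts therefore do not give a direction of signalling. Ifngr1, the ligand-binding chain of the receptor, stood at 5435, 4727 and 4652 in WT and 2558, 2762 and 2752 in KO, a change of -0.87 ± 0.08 (adjusted p = 1.29e-06). Its partner chain Ifngr2 changed by -0.12 (adjusted p = 0.137). Irf8, a macrophage factor that acts with Irf1, stood at 54516.4, 48995.7 and 49307 in WT and 32105.7, 29258.2 and 30268.2 in KO (-0.74 ± 0.07, adjusted p = 9.57e-07). Irf2, which competes with Irf1 (-0.51, adjusted p = 0.000552), and Pias1, a SUMO ligase (-0.33, adjusted p = 0.000318), were also lower. With IL-4 Ifngr1 was lower in KO too (-0.61, adjusted p = 0.000304). It was the only 1 of the 15 to pass there, beside 6.59% of all genes.

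Irf1 itself lay at the threshold between genotypes with IFN-gamma. Irf1 stood at 65763.4, 54001 and 53047.5 in WT and 46744.7, 45810.4 and 47190.7 in KO, a change of -0.30 ± 0.11 (adjusted p = 0.04999). It missed when any of KO replicates 1, 2 and 3 or WT replicates 1 and 2 was left out (adjusted p = 0.0538 to 0.222). Without WT replicate 1, the highest WT library for Irf1, the Irf1 change was -0.20. Socs1 changed by -0.38 (adjusted p = 0.161).

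Of the 12 genes of the type I interferon loop, 11 rose in WT and 10 in KO with IFN-gamma, and between genotypes 3 were lower and 1 higher (list median -0.16). Of all genes 31.4% rose in WT and 28.3% in KO, and 13.6% were lower and 14.3% higher between genotypes. Ifnb1, the interferon beta gene, had no read in untreated WT libraries and stood with IFN-gamma at 28.5, 59.7 and 51.9 in WT and 17.4, 3.46 and 8.70 in KO, a change of -2.30 ± 0.57 (adjusted p = 0.00627). Ifnb1 passed the filter on low values only through WT with IFN-gamma, the group where it is high. Ifnar1, a chain of its receptor (-0.56, adjusted p = 0.000321), and Tyk2, its kinase (-0.31, adjusted p = 0.00317), were lower. Ifit1, a target of type I interferon that restrains viral RNA, was higher in KO (0.69, adjusted p = 0.0408). That call was lost without KO replicate 1, 2 or 3 or WT replicate 1 or 3 (0.46 to 0.77, adjusted p = 0.0524 to 0.203). With IL-4 Tyk2 was also lower in KO, near the threshold (-0.24, adjusted p = 0.0486). There 1 of the 12 passed as lower and 1 as higher, beside 6.59% of all genes either way.

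Among 17 genes of NF-kappa B and TNF, 15 rose and 1 fell with IFN-gamma in each genotype, and between genotypes 7 were lower and 3 higher (list median -0.23). The shares of all genes were 31.4% and 31.1% in WT, 28.3% and 27.5% in KO, and 13.6% lower and 14.3% higher between genotypes. Rel, the c-Rel subunit, changed by -1.15 (adjusted p = 3.12e-05) and Nfkbie, an inhibitor of NF-kappa B, by -1.20 (adjusted p = 6.77e-07). Nfkb1, the p50 precursor, was lower (-0.26, adjusted p = 0.0227; lost without KO or WT replicate 3, adjusted p = 0.0848 and 0.0754), whereas Rela, the p65 subunit, was higher (0.33, adjusted p = 0.00162). Tnfrsf1b, the second TNF receptor (0.90, adjusted p = 3.53e-06), and Ikbkg, a subunit of the IKK kinase (0.56, adjusted p = 0.000102), were higher too. Tnf changed by 0.16 (adjusted p = 0.38). With IL-4 Ikbkg was also higher in KO (0.34, adjusted p = 0.02), the only 1 of the 17 to pass, beside 6.59% of all genes.

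Of 6 genes that act on AU-rich messages, 2 were lower and 2 higher in KO with IFN-gamma, beside 13.6% and 14.3% of all genes. Zfp36, tristetraprolin, which promotes decay of such messages, stood at 17784.8, 12186.4 and 12190.6 in WT and 6816, 6814 and 7034 in KO (-1.01 ± 0.10, adjusted p = 2.83e-06). Its relative Zfp36l1 was lower (-1.84, adjusted p = 1.5e-07), while Zfp36l2 (0.23, adjusted p = 0.0389) and Rc3h1, the decay factor roquin 1 (0.35, adjusted p = 0.00561), were higher. The Zfp36l2 call was lost without KO replicate 1 or 3 or any WT replicate (adjusted p = 0.0645 to 0.115). With IL-4 Zfp36l1 was also lower in KO (-0.69, adjusted p = 0.00894). There 2 of the 6 passed as lower and 0 as higher, beside 6.59% of all genes either way. Whether the lower levels of the ligands with IFN-gamma follow any of these genes was not tested.

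**Figure D4:**
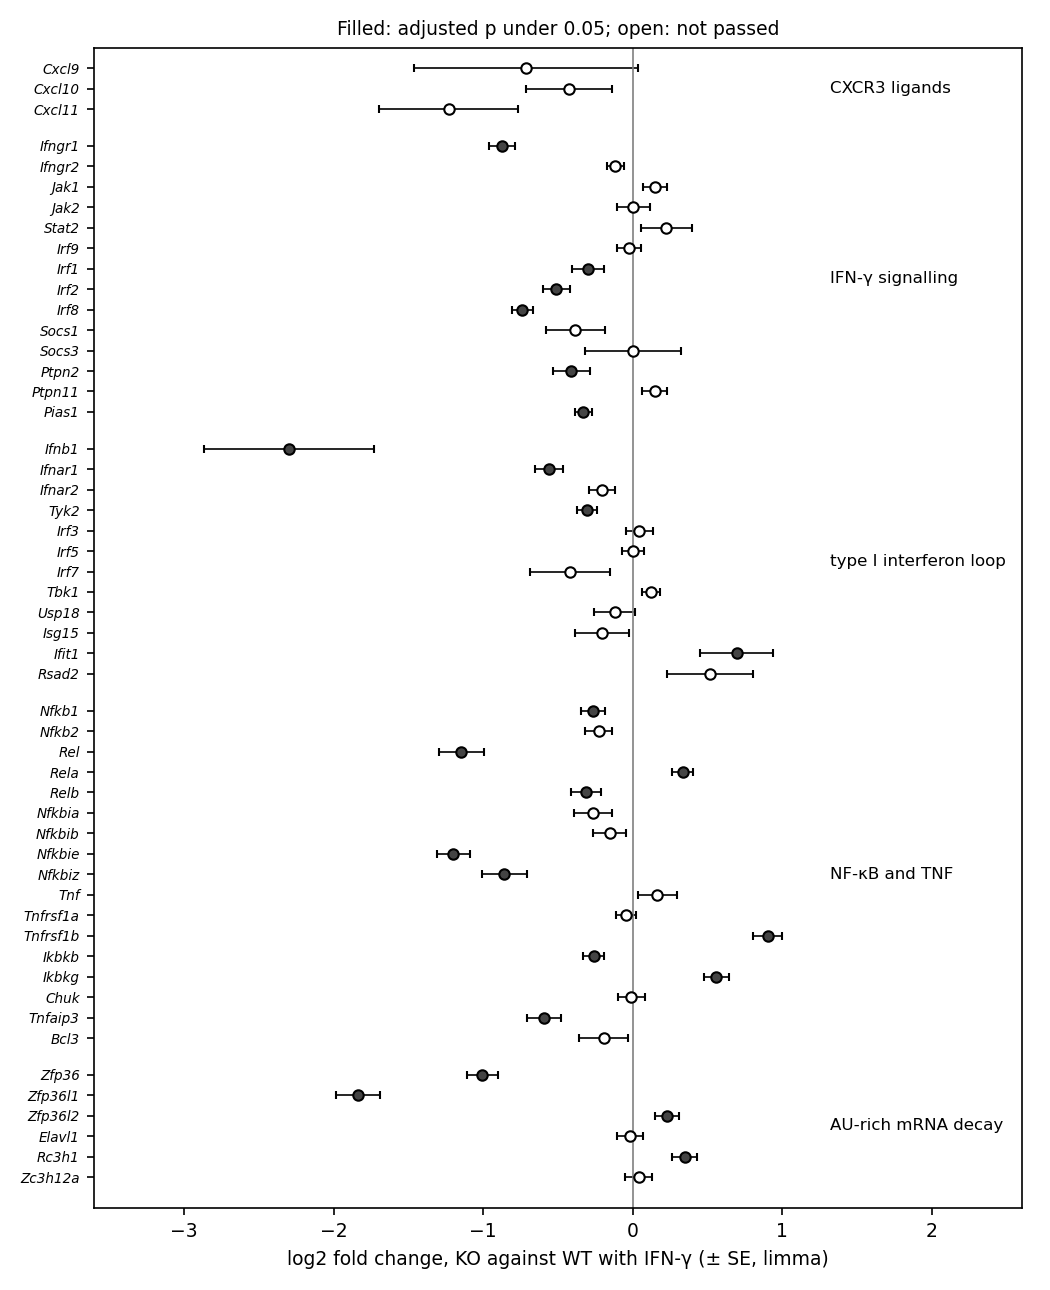
Log2 change of KO against WT with IFN-gamma, ± SE from the limma fit, for the 3 ligands and genes of the lists of IFN-gamma signalling, type I interferon loop, NF-kappa B and TNF, and AU-rich mRNA decay, filled where adjusted p was under 0.05. The ligands lie below 0 with wide error bars and open symbols, while Ifngr1, Irf8, Rel, Nfkbie, Zfp36 and Zfp36l1 lie below 0 with narrow ones. Tnfrsf1b, Ikbkg, Rela, Rc3h1, Zfp36l2 and Ifit1 are filled and lie above 0.

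Other genes that IFN-gamma induces were listed for comparison. All 21 rose in both genotypes (list medians 6.03 in WT and 6.38 in KO), beside 31.4% of all genes in WT and 28.3% in KO. They were listed as induced genes with earlier results of these data known, so that count was set in advance. Between genotypes with IFN-gamma 4 were lower, 3 higher and 14 did not pass, with a median of -0.01. These counts are near the shares of all genes, 13.6% lower and 14.3% higher. Ccl5, a T cell chemokine that does not bind CXCR3, was lower (-0.62, adjusted p = 0.016), and so was H2-Aa, a class II antigen-presentation gene (-0.68, adjusted p = 0.0207). Il12b, the p40 chain of interleukin 12 (4.59, adjusted p = 3.92e-05), and Ciita, the class II transactivator (0.76, adjusted p = 0.0146), were higher. Il12b passed the filter on low values only through KO with IFN-gamma, the group where it is high. Gbp4 changed by -0.26 (adjusted p = 0.585) and Nos2 by 0.50 (adjusted p = 0.145). Without WT replicate 1 the calls of Ccl5 (adjusted p = 0.0767), H2-Aa (0.105) and Ciita (0.0667) were lost, H2-Aa also without KO replicate 1 or 3 and Ciita without KO replicate 1 or 2. Over all alternatives 1 to 4 of the 21 were lower and 1 to 6 higher. Ccl5 was already lower in untreated KO (-1.06, adjusted p = 0.00319). It was the only 1 of the 21 to pass there, beside 1.98% of all genes. The genotype difference in the IFN-gamma response of Ccl5 was 0.45 (adjusted p = 0.309) and did not pass.

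Of 12 other CXC chemokines listed, 8 were in the table and 7 were tested. Cxcl16, a membrane-bound chemokine, rose with IFN-gamma by 1.41 in WT and 1.44 in KO and did not pass between genotypes (0.03, adjusted p = 0.878). Cxcl3, a neutrophil chemokine, was higher in KO with IFN-gamma, at 46.7, 22.5 and 53.9 against 4.91, 4.51 and 2.36 in WT (3.05 ± 0.40, adjusted p = 3.1e-05). It was the only one of the 7 to pass, a share like the 14.3% of all genes called higher.

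Genes beside the cluster were also read. Within 500 kb of Cxcl10 the table held 17 other genes, of which 12 were tested. With IFN-gamma 7 rose and 1 fell in WT, and 6 rose and 2 fell in KO, beside 31.4% and 31.1% of all genes in WT and 28.3% and 27.5% in KO. Naaa, an acid amidase gene on the same strand, rose by 1.88 in WT (adjusted p = 3.39e-09) and 1.53 in KO (adjusted p = 6.7e-08). Art3, which overlaps Cxcl10 on the other strand, was listed at 0 in untreated WT and at a mean of 13.0 with IFN-gamma, and at 0.876 and 17.7 in KO, and it passed the filter only through IFN-gamma libraries. Its reads cannot be told apart from reads of Cxcl10 in the 133 shared bases if the counting did not use strand. The other neighbours that rose changed by 0.31 to 0.68 in WT. Between genotypes with IFN-gamma Sdad1 (0.48, adjusted p = 0.0173) and Cdkl2 (0.48, adjusted p = 0.0422) were higher and Rchy1 lower (-0.23, adjusted p = 0.046), near the 14.3% and 13.6% of all genes, and over all alternatives 0 to 3 neighbours were higher and 0 to 1 lower.

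**Figure D5:**
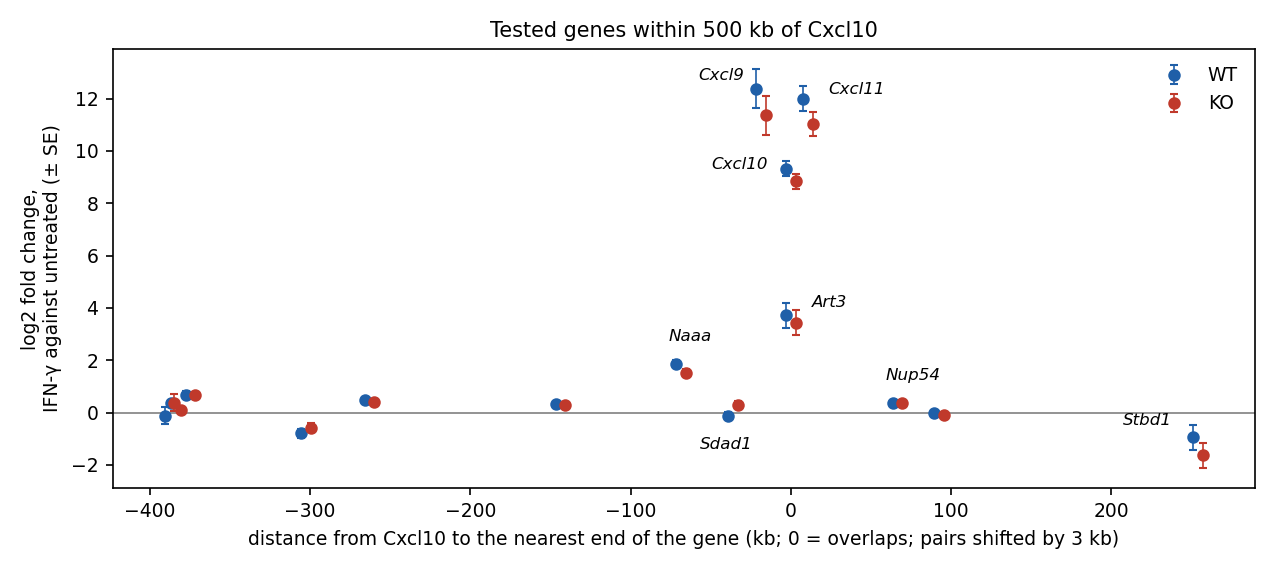
Log2 change with IFN-gamma against untreated, ± SE, in WT and KO for each tested gene within 500 kb, against its distance from Cxcl10 in kb. Cxcl9, Cxcl10 and Cxcl11 stand between 8.83 and 12.37, Art3 at 3.43 to 3.71, Naaa at 1.53 to 1.88, and the other genes between -1.64 and 0.68.

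Across the 18 libraries, the genes with the pattern most like each ligand were sought among 9753 genes with a mean of at least 100. The points share the 6 groups, so these correlations mostly reflect the IFN-gamma libraries against the rest and are given as a description. Cxcl10 was most like Iigp1 (Pearson r = 0.997), Gbp4, Isg20, Apobec3 and Trafd1. Cxcl11 was most like Sh3bp4 (r = 0.997), BC023105, Trafd1, Apobec3 and Cxcl10 itself (r = 0.994). Cxcl9 was most like Eif4g3 (r = 0.994), Hectd4, Wdr62, Icam1 and Mgat4a, with Cxcl10 at rank 58 (r = 0.980) and Cxcl11 at rank 65 (r = 0.979). By Spearman's rho 1 of these 5 genes for Cxcl9, 1 for Cxcl10 and 0 for Cxcl11 stayed among the nearest 5. Cxcl10 then ranked 974 for Cxcl9 (rho = 0.749) and 143 for Cxcl11 (rho = 0.860).

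With each group's mean subtracted, which leaves the spread among libraries of a group, the ligands were less alike. Cxcl9 and Cxcl11 had r = 0.587, Cxcl9 and Cxcl10 r = 0.393 and Cxcl10 and Cxcl11 r = 0.331. Cxcl10 was then most like Gbp3 (r = 0.948), Phf11d (r = 0.939), Ifi204 (r = 0.932), Sass6 and Sp100. Cxcl9 was most like Susd1 (r = 0.911) and Cxcl11 most like Fbxo4 (r = 0.902). For Cxcl9 and Cxcl11 this spread includes libraries with few or no reads, whose counting error enters it.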

How the data were processed

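Poly-A selected RNA of the 18 libraries was sequenced with a directional kit, per the labels' protocols. STAR 2.5, HTSeq 0.6, DESeq2, edgeR and the build GRCm38 are named in the submitters' processing notes, without the strand setting of the counting. The deposited values are normalized counts, a signal of reads divided by 1 size factor per library, as read from the values: 100% of them were whole reads within 0.1 once the factor was recovered. The table had 21428 rows for 21380 identifiers, 34 of which occur more than once.

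From these, log2(normalized count + 1) was fitted with limma 3.58.1 (R 4.3.3) with 1 mean per group and 12 residual degrees of freedom, over the 14288 genes with at least 10 in at least 3 libraries. P-values were adjusted by Benjamini-Hochberg over those genes and called under 0.05. The procedure was tested on simulated reads with the same setting of spread for every gene and group. The spread of the ligands differed between treatments, so that test does not cover their calls. Ratios between members used transcript lengths of GENCODE M21 and exact permutation tests (SciPy 1.17.1). The members and lists were chosen with earlier results of these data known. Named were the 3 members, up to 4 called genes per list with the smallest adjusted p, and genes with a known part in ligand biology. A listed gene and a searched motif are not reported here, although the list counts include the gene.

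Treatments share animals by the codes in the labels, and 13 of 18 same-animal pairs had deviations correlated above 0.1 (0.00363 to 0.243). IFN-gamma and IL-4 comparisons share the untreated libraries. Alternatives were pseudocounts of 0.5 and 5, no filter or a mean of at least 50, TMM and quantile scaling, edgeR 4.0.16 and DESeq2 1.42.0 on the recovered reads, compared groups alone, a replicate block, Spearman likeness, and leaving out each library. edgeR on compared groups alone was chosen after seeing the data. Counting intervals are 95% and cover counting error only.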

Additional observations from a re-analysis of the deposited data

Results flagged for a closer look

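The response to IFN-gamma, treated against untreated, differed between KO and WT by the interaction test of limma (Benjamini-Hochberg adjusted p) for 15 listed genes around the ligands, and for none of the 3 ligands, beside 9.15% of all genes. They were 4 of 15 tested in IFN-gamma signalling, 2 of 12 in the type I interferon loop, 4 of 17 of NF-kappa B and TNF, 2 of 6 of AU-rich decay, 1 of 7 other CXC chemokines and 2 of 21 other induced genes. In the CXCR3 axis 0 of 3 tested genes passed, and among the locus neighbours 0 of 12. Values are log2 differences of the response, KO minus WT. In IFN-gamma signalling they were -0.70 for Ifngr1 (adjusted p = 0.00134), -0.59 for Irf8 (0.00107), -0.49 for Irf2 (0.0239) and -0.26 for Pias1 (0.0458). In the type I interferon loop they were -3.09 for Ifnb1 (0.0227), whose untreated levels rest on a few reads at most and which passed the filter only through WT with IFN-gamma, and -0.51 for Ifnar1 (0.0229). Among NF-kappa B and TNF genes they were -1.46 for Nfkbie (3.24e-05), -1.13 for Rel (0.00281), -0.73 for Nfkbiz (0.0374) and 0.88 for Tnfrsf1b (0.000615). Of the genes acting on AU-rich messages, Zfp36 differed by -1.14 (0.000143) and Zfp36l1 by -1.41 (0.000367). The response was larger in KO for Cxcl3 (2.67, 0.00634), Ciita (1.08, 0.0348) and Il12b (3.79, 0.0111), the last of which passed the filter only through KO with IFN-gamma. The results of Ciita, Ifnar1, Ifnb1, Irf2, Nfkbiz and Pias1 were each lost when some single libraries were left out, and those of Ifnb1 and Il12b in edgeR (adjusted p = 0.125 and 0.219).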

How the results depend on the processing

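Induction by IFN-gamma kept its direction and call for all 3 ligands in both genotypes under every alternative run. The KO against WT change with IFN-gamma kept its direction for each ligand, and the call depended on the model. Cxcl9 (-0.71) passed with compared groups alone, in edgeR and in edgeR with compared groups alone. Cxcl10 passed with compared groups alone (-0.42) and in edgeR with compared groups alone (-0.43). Cxcl11 passed at -1.23 with compared groups alone, pseudocount 5, DESeq2 and edgeR, and at -1.24 in edgeR with compared groups alone. With the replicate number as a block Cxcl11 also passed (-1.23, adjusted p = 0.0491), but KO and WT share only a number: 1 of 9 same-numbered pairs had deviations correlated above 0.1 (-0.212 to 0.104). In the paired IL-4 comparison the block gave -0.64 for Cxcl10 in KO (adjusted p = 0.0493) and changed no other call of the ligands. The genotype difference in the IFN-gamma response of Cxcl11 passed with pseudocount 5 (-1.17). The fall of Cxcl9 with IL-4 in WT missed with compared groups alone (-2.33, adjusted p = 0.117) and ran from -2.91 to -1.26 over left-out libraries. Left-out libraries moved other changes across 0 or the threshold: Cxcl9 KO against WT from -0.21 to 0.65 untreated and from -1.36 to 0.63 with IL-4, its genotype difference in the IL-4 response from -1.65 to 0.34, Cxcl10 with IL-4 from -0.025 to 0.41 in WT and from -0.87 to -0.22 in KO, and Cxcl10 KO against WT untreated from -0.10 to 0.24. Of 2607 settings over 156 results on other named genes, 107 lost a call, 17 gained one and 2 reversed, both Ifngr2 with IFN-gamma under quantile scaling (-0.050 in WT, -0.089 in KO). The number of genes called ranged from 124 to 1373 (283 as reported) for KO against WT untreated, from 128 to 1333 (941) with IL-4, from 760 to 2073 (1307) for the difference in the IFN-gamma response and from 1 to 21 (1) for that in the IL-4 response. The causes were not tested. Depth limits Cxcl11 outside IFN-gamma and Cxcl9 with IL-4, which rest on a few reads per library.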
